A study of Homo sapiens with 6 samples.

Results

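Genes that build ribosomes in the nucleolus were compared between U-2 OS cells expressing S22A-progerin and U-2 OS cells expressing wt-progerin. The genes were taken by symbol: UTP, NOP, NOL, RRP and EXOSC genes with a family number, POLR1 and POLR3 genes with a family letter, and BOP1, PES1, WDR12, FBL, DKC1, NCL and NPM1. Of 72 protein-coding genes in the RefSeq table that meet this rule, 44 had a named probe set among the 14884 genes tested. The other 28 were not analysed here. They include NPM1, PES1 and DKC1, 9 of 11 UTP genes and 6 of 8 POLR1 genes, so the UTP proteins and RNA polymerase I are covered thinly and the exosome, with 10 of 10 EXOSC genes, is covered fully.

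U-2 OS is a human osteosarcoma line. All cells had been infected with a retroviral vector, kept in 5 µg/ml puromycin over 3 days to select for the vector, and collected 4 days after infection. On 3 arrays the vector carried wt-progerin, the truncated lamin A of Hutchinson-Gilford progeria, and on the other 3 it carried S22A-progerin, in which serine 22 is replaced by alanine. Both groups therefore express progerin, and no array of cells without it was analysed here, so a difference does not tell which group moved. The design text describes the replicates as independent, and a p-value covers no more than the variation among the 6 arrays.

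A ribosome begins in the nucleolus, where RNA polymerase I transcribes one long precursor that holds most of the ribosomal RNA. A large particle called the small subunit processome folds and cuts the precursor while small nucleolar RNAs guide its chemical modification. The RNA exosome, a ring of subunits with attached nucleases, trims the ends and degrades the by-products, and further factors assemble the large subunit. RNA polymerase III, which works mostly outside the nucleolus, makes the remaining small ribosomal RNA and the transfer RNAs. Dividing cells make many ribosomes, and damage to the nucleolus is known to raise p53.

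Values are log2 expression levels with n = 3 arrays per group, and a difference is the mean of the S22A-progerin arrays minus the mean of the wt-progerin arrays. A gene is said to have risen or fallen where the adjusted p of limma over all genes was under 0.05. Array medians over 53617 probe sets lay between 6.04 and 6.09, and arrays correlated at 0.994 to 0.997 within a group and at 0.983 to 0.985 between groups, across genes. S22A-progerin replicate 3 was in the lowest of those within-group pairs, and counts without it are given with the results. LMNA, whose array value does not separate the vector's transcript from the cell's own, read 8.17, 8.15 and 8.10 in wt-progerin and 8.31, 8.26 and 8.29 in S22A-progerin (adjusted p = 0.0796). Of the 4 osteoblast markers measured, RUNX2 and SPP1 read above 7 on every array, while IBSP lay between 3.73 and 4.11 and SP7 between 6.14 and 6.31. With limma RUNX2 was lower in S22A-progerin (-0.74, adjusted p = 0.00096) and SPP1 higher (1.18, adjusted p = 9.83e-05), and IBSP and SP7 did not pass. The 3 leukocyte, 3 epithelial and 2 endothelial markers measured had group medians at level percentiles of 22.4, 27.0 and 21.3, and of these 8 genes KRT14 passed, lower in S22A-progerin.

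The nucleolar genes did not move as a block. Of the 44 genes, 10 rose and 5 fell, and their median difference was -0.02 beside 0.00 over all genes. The 15 that passed are 34.1% of the 44, where 25.4% of all genes passed, and 39.2% did among the 2029 genes at least as bright as the median nucleolar gene. Those 2029 genes are brighter as a set than the 44 (median level percentile 93.2 beside 86.4), so they are not a matched background. Higher calls made up 22.7%, against 10.8% of all genes and 12.9% of those 2029 bright genes. Lower calls made up 11.4%, against 14.6% and 26.3%. The arrays of the groups did not overlap in 25 genes (56.8%), where 42.1% of all genes and 66.4% of the bright genes showed no overlap. The differences were small, from -0.51 to 0.62, and the median gene stood at percentile 86.4 of expression level. The 5 falls were all genes of the RNA exosome, and 8 of the 10 rises lay outside it. Outside the exosome 0 genes passed as lower with limma, 4 were lower at an unadjusted p under 0.05, and 4 passed with trended and robust variance priors.

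**Figure D1:**
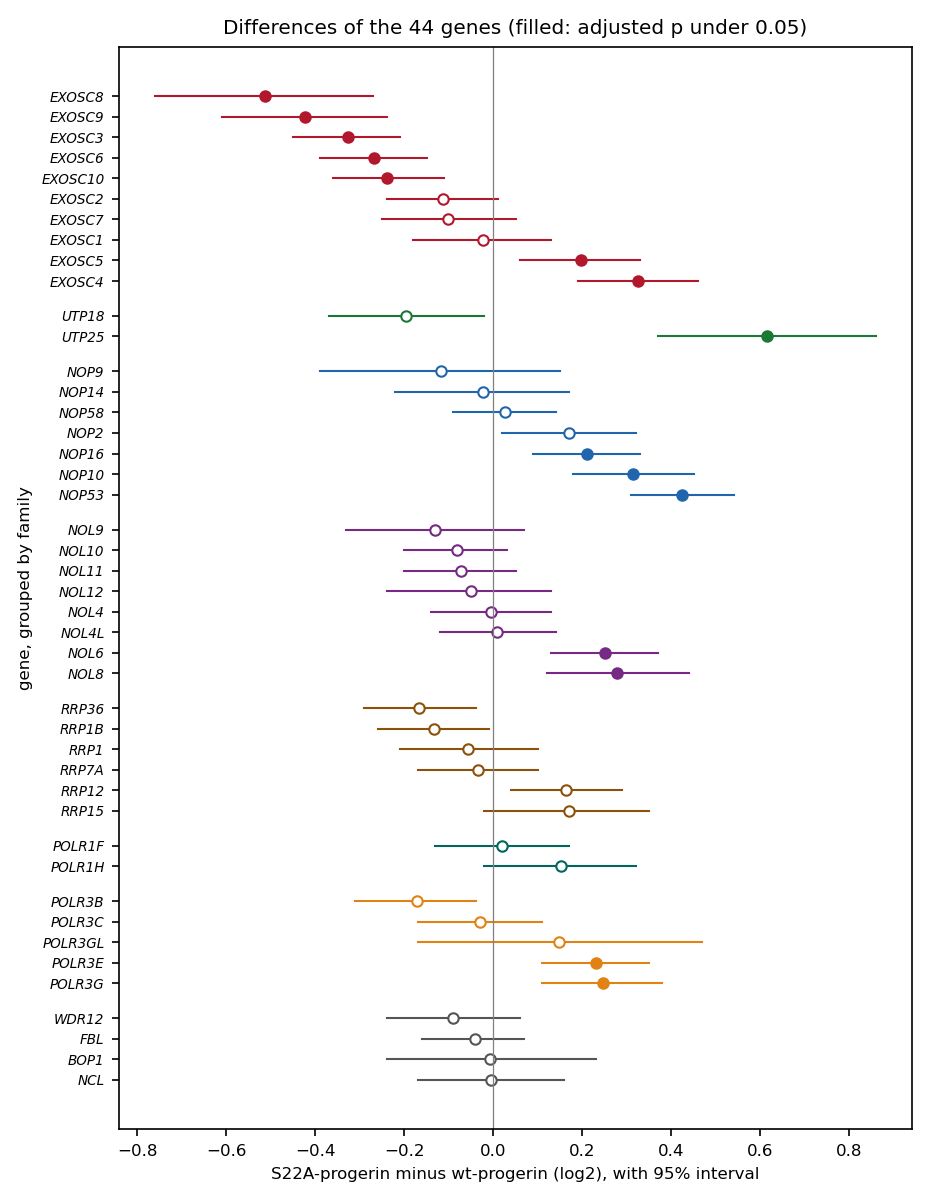
Difference of each of the 44 genes on the log2 scale (horizontal axis, S22A-progerin minus wt-progerin) with its 95% interval, grouped by family on the vertical axis. Filled points passed at an adjusted p under 0.05. The 5 filled points left of 0 are EXOSC genes, and the 10 to the right run from EXOSC5 at 0.20 to UTP25 at 0.62.

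**Figure D2:**
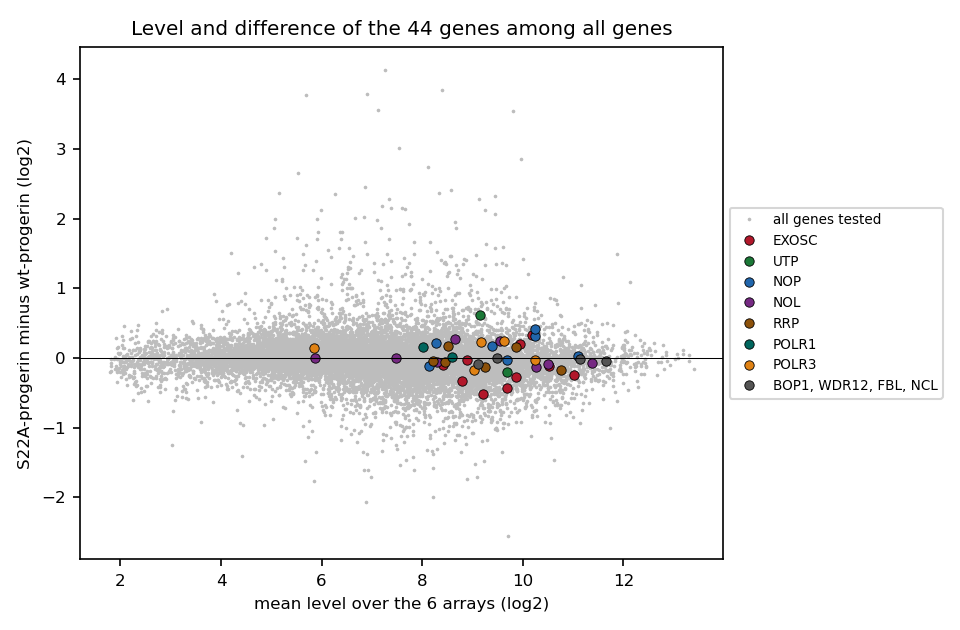
Mean level over the 6 arrays (horizontal axis, log2) against the difference (vertical axis, log2) for all 14884 genes in grey and the 44 nucleolar genes in colour. The coloured points lie toward the bright end and stay between -0.51 and 0.62, while single genes elsewhere reach 4.13.

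Calls rested on small differences, and several ended when 1 array was left out. Of the 15 called genes, 9 passed in each of the 14 other fits (UTP25, NOP53, NOP10, NOL6, EXOSC4, EXOSC3, EXOSC6, EXOSC8 and EXOSC9) and all 15 kept their sign in every fit. The rises numbered 5 without wt-progerin replicate 1 or 3, 6 without wt-progerin replicate 2 or S22A-progerin replicate 1, 7 without S22A-progerin replicate 2 and 8 without S22A-progerin replicate 3. The falls numbered 4 to 6 when any array was left out, 9 with the dimmer 50% of genes left out and 10 with trended and robust variance priors. Over all genes, the rises went from 1601 to between 1126 and 1553 when any array was left out. The falls over all genes went from 2176 to between 1514 and 2048.

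Subunit genes of the exosome moved in both directions, with 5 of 10 lower, 2 higher and 3 not passing. These are 50% lower and 20% higher, beside 14.6% and 10.8% of all genes and 26.3% and 12.9% of the 2029 bright genes. The median difference of the family was -0.18. EXOSC8, a ring subunit, read 9.45, 9.40 and 9.55 in wt-progerin and 9.08, 9.06 and 8.72 in S22A-progerin. The lowest of these values was S22A-progerin replicate 3, and the groups did not overlap. The difference was -0.51 (SE 0.104, 95% interval -0.76 to -0.27, adjusted p = 0.0112), a 1.43-fold fall and the largest fall among the 44 genes.

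EXOSC9, another ring subunit and an antigen of the autoimmune PM/Scl complex, read 9.88, 9.86 and 9.93 in wt-progerin and 9.59, 9.49 and 9.32 in S22A-progerin. All 3 S22A-progerin arrays were below all wt-progerin arrays, and the gene fell 1.34-fold (SE 0.0783 in log2 units, adjusted p = 0.00757). EXOSC6, also of the ring, went from 9.99, 9.99 and 10.02 to 9.78, 9.71 and 9.71. Its replicates were tight in both groups, and it fell 1.20-fold (adjusted p = 0.00881).

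Against these, EXOSC4, a ring subunit, read 10.02, 10.10 and 9.96 in wt-progerin and 10.37, 10.33 and 10.34 in S22A-progerin. It was higher in 3 of 3 S22A-progerin arrays, with a difference of 0.33 (SE 0.0571, 95% interval 0.19 to 0.46, adjusted p = 0.00612). EXOSC5 went from 9.89, 9.89 and 9.78 to 10.06, 10.00 and 10.09, a difference of 0.20. The groups did not overlap, but the adjusted p of 0.0468 was close to the threshold, and the call ended when any single array was left out. In the assembled ring these subunits sit in known pairs, EXOSC4 with EXOSC9, EXOSC5 with EXOSC8 and EXOSC6 with EXOSC7. The transcripts of EXOSC4 and EXOSC9 thus moved in opposite directions, as did those of EXOSC5 and EXOSC8, while EXOSC7 (-0.10, adjusted p = 0.301) did not pass.

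Of the subunits that cap the ring and receive the RNA, EXOSC3 read 8.93, 8.95 and 9.0 in wt-progerin and 8.65, 8.64 and 8.61 in S22A-progerin. The S22A-progerin values lay within 0.04 of each other, and the gene fell 1.25-fold (SE 0.0511, adjusted p = 0.00385). EXOSC2 (-0.11) and EXOSC1 (-0.02) did not pass. EXOSC10, the nuclease that joins the exosome in the nucleolus, went from 11.14, 11.15 and 11.11 to 10.95, 10.88 and 10.85. It fell 1.18-fold, but did not pass without any 1 of the 3 wt-progerin arrays, and its second, dimmer probe set (mean 6.80) differed by -0.11 with an adjusted p of 0.271 over probe sets.

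**Figure D3:**
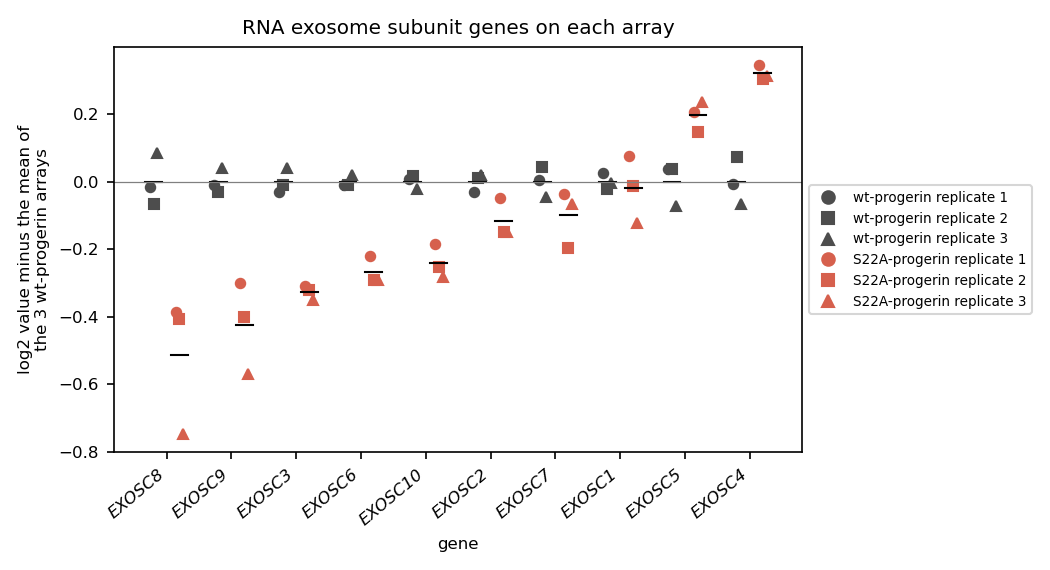
Value of each EXOSC gene on each array, minus that gene's mean in wt-progerin (vertical axis, log2), with genes ordered by difference along the horizontal axis. Dark grey points are the 3 wt-progerin arrays, red points the 3 S22A-progerin arrays, symbols give the replicate number and bars the group means. Red points lie below all grey points for EXOSC8, EXOSC9, EXOSC3, EXOSC6, EXOSC10 and EXOSC2, and above them for EXOSC5 and EXOSC4.

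Partner proteins of the exosome were a separate list of nucleases, helicases and cofactors, of which 4 of 10 measured fell and none rose at an adjusted p under 0.05 (1 was higher at an unadjusted p under 0.05). The falls are 40% of this bright list, beside 14.6% of all genes and 26.3% of the 2029 bright genes, and its median difference was -0.07. MTREX, the nuclear RNA helicase that feeds precursors into the exosome, read 10.67, 10.64 and 10.60 in wt-progerin and 10.25, 10.12 and 10.41 in S22A-progerin, and fell 1.30-fold (adjusted p = 0.0134). DIS3L, the catalytic subunit of the cytoplasmic exosome, fell 1.37-fold (adjusted p = 0.00258). DIS3, the nuclear catalytic subunit, had a difference of 0.12 and did not pass. The remaining falls were SKIC8 (-0.37) and SKIC3 (-0.19) of the cytoplasmic Ski complex, and SKIC3 lost its call in 9 of the other fits.

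All 8 proliferation markers measured were lower in S22A-progerin, by 0.24 to 0.76 on the log2 scale. All 8 passed with limma, though PCNA was close to the threshold (adjusted p = 0.0495). Of all genes 14.6% passed as lower, and of the 2029 bright genes 26.3%. The mean level of the 8 markers was 10.42 to 10.47 on the wt-progerin arrays and 9.86 to 9.97 on the S22A-progerin arrays. Whether this shift has a part in the falls of exosome genes was not tested, and in bulk RNA fewer cells of a kind and less RNA per cell cannot be told apart.

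Among factors of the small subunit, UTP25 moved most of the 44 genes. UTP25 is a processome component also called Def, which has been linked to the breakdown of p53 in the nucleolus. It read 8.79, 8.83 and 8.88 in wt-progerin and 9.65, 9.47 and 9.23 in S22A-progerin. The S22A-progerin arrays were spread over more than 0.4 but all lay above wt-progerin. The difference was 0.62 (SE 0.105, 95% interval 0.37 to 0.86, adjusted p = 0.00552), 1.53-fold, with a range of 0.51 to 0.73 over all fits.

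UTP18, a scaffold protein of the processome and the other UTP gene measured, read 9.81, 9.78 and 9.76 in wt-progerin and 9.67, 9.65 and 9.44 in S22A-progerin. The groups did not overlap, but the difference of -0.20 did not pass (adjusted p = 0.0956). NOL6, a processome protein, went from 9.44, 9.41 and 9.39 to 9.70, 9.64 and 9.66. Its arrays were tight within each group, and it rose by 0.25 (SE 0.050, adjusted p = 0.0103).

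The other processome genes of these families did not pass. NOL10 read 10.53, 10.54 and 10.55 in wt-progerin and 10.48, 10.43 and 10.45 in S22A-progerin, a difference of -0.08. NOL11 differed by -0.07. NOP14 read 9.71, 9.67 and 9.70 against 9.81, 9.70 and 9.50, with no clear separation.

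Of the 6 RRP genes measured, which act in both subunits, none passed with limma over all genes, where 25.4% of all genes passed. At an unadjusted limma p under 0.05, 1 was higher and 2 were lower. RRP36, an early processing factor of the small subunit, read 10.85, 10.84 and 10.82 in wt-progerin and 10.69, 10.71 and 10.61 in S22A-progerin (difference -0.17, adjusted p = 0.0571). RRP12, which takes part in export of the small subunit, read 9.77, 9.82 and 9.77 against 10.00, 9.95 and 9.90 (0.16, adjusted p = 0.0647). The arrays of both genes fell into separate groups although neither passed. Such separation was seen in 4 of 6 RRP genes (66.7%), near the 66.4% of the 2029 bright genes, and in 42.1% of all genes. RRP15, a large subunit factor, read 8.33, 8.49 and 8.45 against 8.73, 8.56 and 8.50, a difference of 0.17.

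RRP1 and RRP1B are related genes of the large subunit pathway. RRP1B read 9.34, 9.28 and 9.30 in wt-progerin and 9.18, 9.21 and 9.13 in S22A-progerin, a difference of -0.13 with adjusted p = 0.110. RRP1 read 8.44, 8.58 and 8.44 against 8.35, 8.44 and 8.49, with overlapping groups and a difference of -0.06.

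A list of 41 further small subunit factors, chosen by role, had 32 measured members. Of these 3 rose and 1 fell, with a median difference of 0.00. The rises are 9.38% of the list, near the 10.8% of all genes, and the fall 3.12%, under the 14.6% of all genes. RIOK3, an atypical kinase of late small subunit maturation, rose from 8.67, 8.75 and 8.80 to 9.34, 9.20 and 9.08 (0.46, adjusted p = 0.00557). RCL1, an endonuclease-like processing factor, rose by 0.42, and WDR43, a processome scaffold, by 0.21. The fall was DDX47 (-0.23), an RNA helicase. WDR43 and DDX47 lost their calls without any 1 of the 3 wt-progerin arrays.

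Of 7 NOP genes measured, 3 rose (42.9%, beside 10.8% of all genes and 12.9% of the 2029 bright genes). The 3 that rose act in the large subunit or in snoRNPs, the protein particles around small nucleolar RNAs. NOP53 is a large subunit factor that brings the exosome helicase to the precursor and is also known for holding the ribosomal protein RPL11 in the nucleolus. It read 10.04, 10.04 and 10.03 in wt-progerin and 10.46, 10.44 and 10.47 in S22A-progerin. Values in each group lay within 0.03 of each other, and the difference of 0.42 (SE 0.0478, 95% interval 0.31 to 0.54, adjusted p = 0.000909) had the smallest p of the 44 genes.

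NOP10, a core protein of the box H/ACA snoRNPs that turn uridine into pseudouridine, read 10.11, 10.06 and 10.11 in wt-progerin and 10.40, 10.48 and 10.34 in S22A-progerin. It rose 1.24-fold in 3 of 3 arrays (SE 0.0579, adjusted p = 0.00761). NOP16, a large subunit factor, rose by 0.21 (adjusted p = 0.0217), though the call held in 1 of 6 fits that left out an array. NOP2, an rRNA methyltransferase, differed by 0.17 and did not pass (adjusted p = 0.103).

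NOP58, a core protein of box C/D snoRNPs, read 11.09, 11.09 and 11.10 against 11.11, 11.09 and 11.15. The groups overlapped, and the 95% interval of the difference was -0.09 to 0.14. NOP9, an RNA-binding small subunit factor, read 8.13, 8.24 and 8.19 in wt-progerin and 7.93, 7.94 and 8.34 in S22A-progerin. S22A-progerin replicate 3 stood above the other arrays, and without it NOP9 passed as lower, while the difference over all arrays was -0.12.

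Among NOL genes outside the processome, NOL8, a nucleolar RNA-binding protein, read 8.47, 8.53 and 8.56 in wt-progerin and 8.88, 8.69 and 8.83 in S22A-progerin. The groups were separate and it rose by 0.28 (SE 0.0673, adjusted p = 0.0217), but the call held in 1 of 6 fits that left out an array. NOL9, a polynucleotide kinase of large subunit rRNA processing, read 10.31, 10.28 and 10.40 against 10.34, 10.23 and 10.04, with overlap. NOL12 (-0.05) did not pass.

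NOL4 and NOL4L carry a nucleolar name but are not known as ribosome assembly factors. NOL4 was dim, at 5.79, 5.88 and 5.95 against 5.89, 5.87 and 5.84. NOL4L read 7.43, 7.50 and 7.48 against 7.47, 7.43 and 7.54. The groups overlapped in both genes.

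The 4 measured genes named singly, among them the nucleolar markers FBL and NCL, did not pass with limma, nor at an unadjusted p under 0.05. Of all genes 25.4% passed, and of the 2029 bright genes 39.2%, so the absence of calls among 4 genes says little. FBL, fibrillarin, the methyltransferase of box C/D snoRNPs, read 11.68, 11.68 and 11.65 in wt-progerin and 11.66, 11.62 and 11.61 in S22A-progerin. Its difference was -0.04 with a 95% interval of -0.16 to 0.07. NCL, nucleolin, an abundant protein of the nucleolus that binds precursor rRNA, read 9.37, 9.55 and 9.53 against 9.52, 9.52 and 9.40, an interval of -0.17 to 0.16.

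BOP1 and WDR12 act with PES1 in one complex needed for the large subunit. BOP1 read 11.11, 11.18 and 11.12 in wt-progerin and 11.25, 11.23 and 10.90 in S22A-progerin. S22A-progerin replicate 3 lay below all other arrays and the other two above them, and the second BOP1 probe set showed the same pattern (8.95, 9.02 and 8.99 against 9.12, 9.14 and 8.69). WDR12 read 9.13, 9.10 and 9.21 against 9.09, 9.11 and 8.96, a difference of -0.09.

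**Figure D4:**
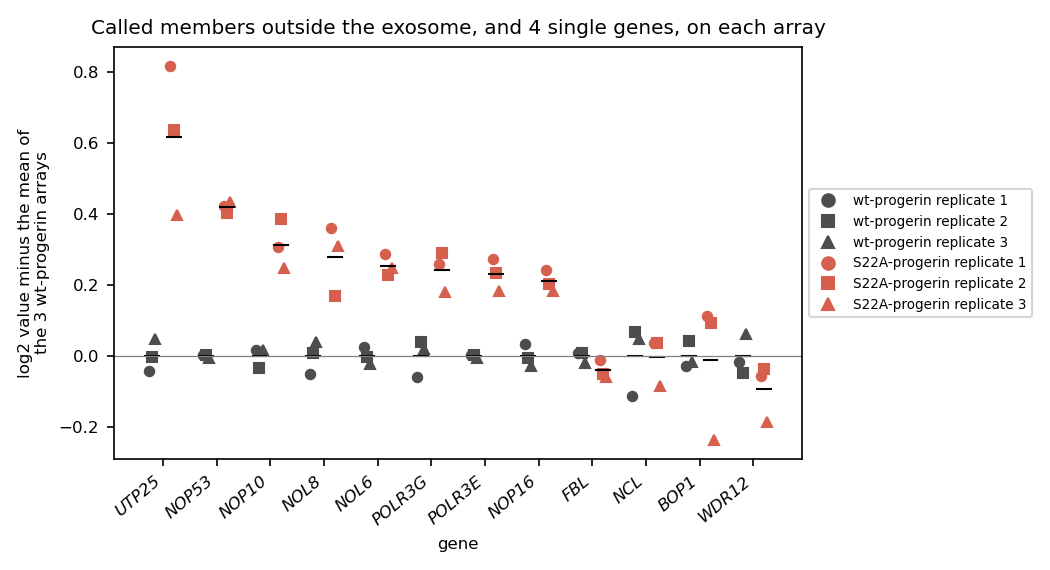
Value of each gene on each array, minus that gene's mean in wt-progerin (vertical axis, log2), for the 8 called genes outside the exosome and the 4 genes named singly. Grey points are wt-progerin, red points S22A-progerin, symbols give the replicate number and bars the group means. The red points lie above the grey ones from UTP25 to NOP16. They mix with them or lie close to them for FBL, NCL, BOP1 and WDR12. Replicate 3 of S22A-progerin is the lowest array for FBL, BOP1 and WDR12.

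In the list of 52 large subunit assembly factors, 42 were measured, 7 rose and 3 fell, with a median difference of -0.01. The 23.8% that passed is near the 25.4% of all genes and under the 39.2% of the 2029 bright genes. CCDC86 (0.48), a nucleolar protein known as cyclon, ZNF622 (0.44), which acts on late large subunits in the cytoplasm, and TEX10 (0.28), part of the rixosome complex that processes the precursor, had the smallest p among the rises. The falls were AFG2A (-0.47), an ATPase that recycles assembly factors, LAS1L (-0.26), the endonuclease partner of the TEX10 complex, and NOC3L (-0.25). LAS1L lost its call without wt-progerin replicate 1 or 2 or S22A-progerin replicate 1 or 2, while AFG2A and NOC3L kept theirs with any array left out.

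The list of snoRNP and nucleolar scaffold factors had 15 of 17 measured, with 1 rise and 3 falls and a median of -0.08. The 26.7% that passed is near the 25.4% of all genes. NOPCHAP1, a chaperone that helps load NOP58 into snoRNPs, rose from 8.02, 8.09 and 8.02 to 8.60, 8.45 and 8.63 (0.52, adjusted p = 0.00157). TCOF1, treacle, a nucleolar scaffold for RNA polymerase I, fell from 8.95, 9.0 and 8.89 to 8.70, 8.61 and 8.67 (-0.29, adjusted p = 0.0096). MKI67, the Ki-67 protein of nucleoli and mitotic chromosomes, fell by 0.74 on the log2 scale (-0.735 before rounding) and is also a proliferation marker. RUVBL1 (-0.24), an ATPase of snoRNP assembly, fell, but not in 5 of the 6 fits that left out an array.

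RNA polymerase I was represented by POLR1F and POLR1H, both smaller subunits, and neither passed, where 25.4% of all genes did. POLR1F read 8.58, 8.58 and 8.60 in wt-progerin and 8.70, 8.51 and 8.61 in S22A-progerin. POLR1H, which takes part in RNA cleavage by the stalled enzyme, read 7.92, 8.01 and 7.88 against 8.21, 8.0 and 8.06, a difference of 0.15 with adjusted p = 0.174. The groups overlapped in both.

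Of 5 RNA polymerase III genes, 2 rose (40%, beside 10.8% of all genes) and none fell with limma (1 was lower at an unadjusted p under 0.05). POLR3G, a subunit that is typical of proliferating and stem cells, read 9.45, 9.55 and 9.53 in wt-progerin and 9.77, 9.80 and 9.69 in S22A-progerin. It rose by 0.25 (SE 0.0578, adjusted p = 0.0199). Its paralog POLR3GL, which takes the same place in the enzyme of resting cells, was dim and variable at 5.88, 5.93 and 5.51 against 6.04, 6.01 and 5.72 (0.15, 95% interval -0.17 to 0.47).

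POLR3E, a peripheral subunit, read 9.06, 9.06 and 9.05 in wt-progerin and 9.33, 9.29 and 9.24 in S22A-progerin, and rose by 0.23 (adjusted p = 0.0156). POLR3B, the second largest subunit and part of the active centre, read 9.06, 9.13 and 9.16 against 8.99, 8.88 and 8.97. Its groups did not overlap, but the difference of -0.17 did not pass (adjusted p = 0.0705). POLR3C, which binds POLR3G, read 10.26, 10.27 and 10.23 against 10.30, 10.24 and 10.14 and overlapped.

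The calls of POLR3E and POLR3G ended in several fits. POLR3E did not pass without any 1 of the 3 wt-progerin arrays. POLR3G passed in 2 of 6 fits that left out an array.

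Initiation factors of both polymerases were mostly not analysed here, with 4 of 24 measured. CAVIN1, which is known both for releasing transcripts of RNA polymerase I and for forming caveolae, fell from 10.86, 10.82 and 10.87 to 10.34, 10.26 and 10.33 (-0.54, adjusted p = 0.000485). RRN3, the factor that recruits RNA polymerase I (0.13), MAF1, the repressor of RNA polymerase III (0.10), and GTF3A (-0.06) did not pass. Some subunits of RNA polymerase II are shared with the other polymerases. None of its 4 measured subunit genes passed with limma, where 25.4% of all genes did. At an unadjusted limma p under 0.05, 1 was higher.

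The MYC network regulates many ribosome genes, and in a list of its members and of genes that link the nucleolus to p53, 4 of 9 measured rose and none fell (none was lower at an unadjusted p under 0.05). The rises are 44.4% of these 9, beside 10.8% of all genes. MYC read 9.11, 9.24 and 9.21 in wt-progerin and 9.98, 9.90 and 9.80 in S22A-progerin. MXD1, which competes with MYC for its partner MAX and represses, went from 7.24, 7.42 and 7.31 to 9.04, 8.87 and 9.08, a 3.19-fold rise (adjusted p = 2.82e-05). MAX (0.29) and MXD4 (0.44), another repressor of the network, rose as well. MYC and the repressors MXD1 and MXD4 were thus higher in the same arrays. MNT, also of the MYC network, read 8.18 in both groups and did not pass (adjusted p = 0.99 with limma). RPL11, a ribosomal protein that signals to p53 when ribosome assembly is disturbed, differed by 0.06 and did not pass.

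**Figure D5:**
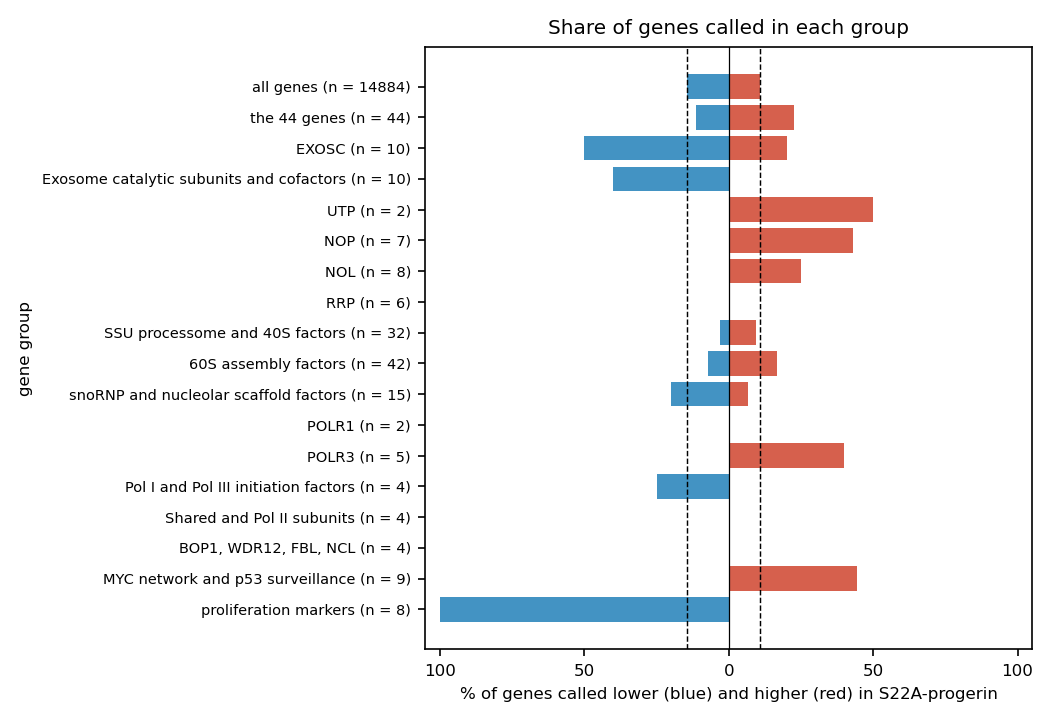
Share of genes called lower (blue, to the left) and higher (red, to the right) in S22A-progerin, in percent of the genes measured in each group, with the number measured in brackets. Dashed lines mark the shares over all genes, 14.6% lower and 10.8% higher. Bars for groups of 2 to 5 genes rest on 1 or 2 genes, and the proliferation markers reach 100% lower.

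MYC and MAX bind a short DNA element, the E-box CACGTG, which reads the same on both strands. RefSeq sequences (GRCh38.p14) of the 250 bases before a start were found for 36 of the 44 genes. Of these, 5 (13.9%) held the element, against 9.88% of the 10749 tested genes with such a sequence. Some genes have several listed starts, and a gene was counted where any of them had a match. Among the genes with a sequence it was present in 3 of 8 that rose, EXOSC5, NOL8 and NOP10, in 0 of 5 that fell and in 2 of 23 that did not pass, UTP18 and POLR3C. Of all genes on the arrays, 11.5% of those that rose and 8.69% of those that fell held it. The counts among the 44 genes are small and rest partly on unstable calls. EXOSC5 passed in 0 of 6 fits that left out an array, and NOL8 in 1 of 6. Of the rises that passed in every fit and had a sequence, NOP10 held the element, while UTP25, NOP53 and NOL6 did not. Whether the element goes with the rises was not tested. The stretches around each match are shown because they let the flanking bases of genes that rose be compared with those of genes that did not, each 30 bases long, 5′ to 3′ on the gene's strand with the element in capitals.
EXOSC5, chr19:41397431-41397460, minus strand: taaacgctaagcCACGTGcggacgcccagg
NOL8, chr9:92325342-92325371, minus strand: gctccgttgggaCACGTGaccagaagttag
NOP10, nearer match, chr15:34343130-34343159, minus strand: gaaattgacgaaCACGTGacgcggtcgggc
NOP10, farther match, chr15:34343289-34343318, minus strand: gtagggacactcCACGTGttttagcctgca
POLR3C, chr1:145823992-145824021, plus strand: gcccgcgtcggtCACGTGagttggccaggc
UTP18, chr17:51260445-51260474, plus strand: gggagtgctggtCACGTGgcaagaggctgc

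The match begins 9 bases before the start in NOL8, 11 and 170 in NOP10, 89 in EXOSC5 and UTP18, and 196 in POLR3C. POLR3C has another listed start, and the 250 bases before that one held no match. Windows of the largest changes, UTP25, NOP53 and EXOSC8, held no match, which says only that these letters are not in those 250 bases. EXOSC5 was the one called gene with a match whose window overlapped no RefSeq gene, so its whole window is given.
EXOSC5, chr19:41397360-41397609, minus strand: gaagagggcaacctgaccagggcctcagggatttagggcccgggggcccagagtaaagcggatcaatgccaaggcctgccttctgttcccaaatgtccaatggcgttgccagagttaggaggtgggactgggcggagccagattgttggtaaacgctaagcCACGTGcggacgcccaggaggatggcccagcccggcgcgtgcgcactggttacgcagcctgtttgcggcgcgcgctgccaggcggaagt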

How the data were processed

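The values deposited by the authors for 6 Affymetrix arrays are on the log2 scale. Per the submitters' processing notes they come from Affymetrix Expression Console and RMA, a method that subtracts background, gives arrays one distribution and summarises the probes of a set. No detection call was used, so low values cannot be told from absence, and the number of arrays limits the precision. A single symbol was listed for 16098 of 53617 probe sets, several for 0, and the remaining 37519 stay unnamed. Updating symbols by Entrez identifier in the RefSeq table (GRCh38.p14) changed 0. The build of the array annotation is not given in the sources used here. Where a gene had several probe sets (779 genes), the brightest was used.

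limma 3.58.1 (R 4.3.3; lmFit, eBayes) was fitted over all 14884 genes, two-sided, with Benjamini-Hochberg adjustment. Members and lists were chosen with earlier results of these data known. NOLC1 and NOPCHAP1 carry no family number and were not members, and neither were RRP7BP, a pseudogene, and NOL4L-DT. All members may be named. Values per array are given for the 2 highest and 2 lowest differences of each family, the single genes and measured paralogs, and some called genes were added. From other lists up to 3 called genes in each direction with the smallest p were taken, others being named after their values were seen. Protein sequences were not used here. Deviations of same-numbered arrays correlated at -0.0549 to -0.00558 across genes, and those of other pairs between groups at -0.0263 to 0.0491. With 3 arrays per group this cannot show whether the cultures were handled in pairs. On simulated arrays of 14884 genes, 15 of 50 changes of 0.3 were recovered, 34 of 50 of 0.6 and 45 of 50 of 1. Far fewer genes changed in the simulation than the 3777 called here, which makes the adjusted threshold stricter there. The rates therefore do not tell how many changes were missed in these data.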

Additional observations from a re-analysis of the deposited data

How the results depend on the processing

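The median difference of the 44 genes stayed within 1 SD over arrays (0.0738) under all alternatives, from -0.0571 to 0.0107, so it has no settled sign. Of the 10 rises and 5 falls, fits without 1 replicate each gave 5 to 8 and 4 to 6. Within the exosome they gave 1 rise and 4 to 5 falls, and outside it 4 to 7 rises and 0 to 1 falls. For the other pathway lists (15 rises, 12 falls) they gave 10 to 18 and 8 to 12, and for all genes (1601 and 2176) 1126 to 1553 and 1514 to 2048. With the replicate block as a fixed term 5 members rose, 4 of them outside the exosome and 1 in it, and with a random replicate block 1 exosome gene rose. Centring each array on its median left 1 exosome rise and gave 1 fall outside it. Centring shifts the differences of all genes by the same amount. Their median went from -0.00367 to -0.0376, with 1320 rises and 2457 falls over all genes. With the dimmer 50% of genes left out 9 members fell, 4 outside the exosome, and 25 other pathway genes rose. Trended and robust priors gave 10 falls, 4 outside the exosome, and 23 rises in the other lists. At adjusted p under 0.01, 4 members rose (1 exosome, 3 others) and 3 fell, all 3 in the exosome, against 7 and 6 in the other lists and 852 and 1226 of all genes. Of the 29 members that did not pass, 8 passed in at least 1 alternative. With NOLC1 and NOPCHAP1 counted as members 11 rose and 5 fell, and without NOL4 and NOL4L 10 rose and 5 fell. Leaving out the POLR3 genes, which the member rule names, gave 8 rises and 5 falls. Apart from fewer arrays, fewer genes or the shift by centring, where a setting brings these in, the cause of these changes was not tested.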

Other observations

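Some nucleolar genes share their upstream bases with a neighbouring gene in the RefSeq table, and 7 such neighbours were on the arrays. These neighbours were looked at after their values were seen, and of all genes on the arrays 25.4% passed with limma. NOL8, which rose by 0.28, lies beside CENPP, a centromere protein, which differed by -0.21 (SE 0.069) and did not pass (adjusted p = 0.0621). UTP18 (-0.20, not passing) lies beside MBTD1, a chromatin reader, which rose by 0.25 (adjusted p = 0.0389) but did not pass in 5 of 6 fits that left out an array. POLR3C (-0.03, not passing) lies beside RNF115, a ubiquitin ligase, which fell 1.25-fold (adjusted p = 0.00456). NOP9 (-0.12, not passing) lies beside DHRS1, a dehydrogenase, which rose by 0.21 (adjusted p = 0.0332). NUTM1 beside NOP10 rose by 0.37 (limma adjusted p = 0.0243) and NOP10 by 0.31. ANKRD34A beside POLR3GL rose by 0.18, with a limma adjusted p of 0.0469 close to the threshold, while POLR3GL (0.15) did not pass. GRK4 beside NOP14 (0.10 and -0.02) did not pass, nor did NOP14. The 250 bases before POLR3E, which rose, overlap a transfer RNA gene, TRL-AAG2-4, the kind of gene that RNA polymerase III transcribes, and its transcript was not analysed here.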
